A study of Mus musculus with 22 samples.

Results

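The genes described are the collagen and laminin chains of 4 cell populations of the mouse embryo. They were taken as every gene symbol of the form Col, number, a, number or Lam, letter a, b or c, number, which gave 55 of the 24454 genes counted. Of these, 44 encode collagen chains and 11 laminin chains. They were set apart as 19 basement membrane chains (the 6 type IV collagen chains, *Col15a1*, *Col18a1* and the laminins), 11 fibrillar collagen chains and 25 other collagen chains. The cells came from the aorta-gonad-mesonephros (AGM), the region of the embryo where blood stem and progenitor cells arise from endothelium, and were sorted from C57BL/6 embryos with a gate for the endothelial surface protein VE-Cadherin. The study asks how endothelial cells that carry the hyaluronan receptor CD44 differ from those that do not. CD44Neg cells, labelled endothelial, gave 10 libraries, of which 4 were taken at E9.5, 3 at E10 and the other 3 at E11. CD44LowKitNeg cells, labelled hemogenic endothelial (endothelium that gives rise to blood), gave 6 libraries (1, 2 and 3 at these stages). CD44LowKitPos cells, labelled pre-HSPC (cells on the way to blood stem and progenitor cells), gave 3 (1 at E9.5 and 2 at E10). CD44High cells, labelled HSPC (blood stem and progenitor cells), gave 3, all at E11. Each library was bulk polyA RNA of 25 cells amplified by SMART-Seq2. No label gives a deletion or a treatment, or says whether the libraries of a group came from separate embryos or litters, so p-values measure the spread between these libraries, which may be partly technical.

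Type IV collagen and laminin each form a network, and the pair of networks, bridged by nidogen and perlecan, makes the basement membrane on which endothelium sits. Laminins are trimers of an α, a β and a γ chain, and the α chain sets which integrins bind: α4 and α5 are the chains of vessel walls, whereas α3 is best known from epithelia and α1 from early embryonic basement membranes. Fibrillar collagens, of which type I and type III are the most familiar, are mainly made by fibroblasts, smooth muscle and other mesenchymal cells, and the minor type V chains mix into their fibrils.

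The type IV genes lie in head-to-head pairs, so the promoters of the chains that are described most are shown as pairs. The windows hold 250 bases before and 50 after the start of each gene on its own strand, from RefSeq on GRCm38.p6 (mm10), in which 40 of the 55 chains had an entry. *Col4a1* (chr8:11312777-11313076, minus strand) and *Col4a2* (chr8:11312555-11312854, plus strand) start 21 bases apart, their windows share 78 bases, and 22 bases of their annotated exons overlap. *Col4a5* (chrX:141475169-141475468, plus strand) and *Col4a6* (chrX:141474027-141474326, minus strand) start 1343 bases apart and their windows share none. Capitals mark 4 motifs searched for on either strand. The letters of the GC box were GGGCGG, those of the CCAAT box were as in its name, those of the CTC box were CCCTCCCC and those of the TATA box were TATAAA:
Col4a1: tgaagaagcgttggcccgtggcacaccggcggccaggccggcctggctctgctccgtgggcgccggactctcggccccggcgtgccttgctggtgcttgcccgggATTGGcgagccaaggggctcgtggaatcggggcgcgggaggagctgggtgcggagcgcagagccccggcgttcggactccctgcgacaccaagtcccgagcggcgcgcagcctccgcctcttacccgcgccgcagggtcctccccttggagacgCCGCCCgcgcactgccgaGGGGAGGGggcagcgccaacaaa
Col4a2: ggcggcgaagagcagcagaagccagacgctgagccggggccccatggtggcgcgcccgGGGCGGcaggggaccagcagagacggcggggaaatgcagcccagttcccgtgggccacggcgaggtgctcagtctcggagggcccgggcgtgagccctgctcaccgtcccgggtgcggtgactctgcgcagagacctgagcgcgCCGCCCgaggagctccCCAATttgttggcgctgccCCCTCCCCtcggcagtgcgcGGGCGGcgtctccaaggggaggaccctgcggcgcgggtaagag
Col4a5: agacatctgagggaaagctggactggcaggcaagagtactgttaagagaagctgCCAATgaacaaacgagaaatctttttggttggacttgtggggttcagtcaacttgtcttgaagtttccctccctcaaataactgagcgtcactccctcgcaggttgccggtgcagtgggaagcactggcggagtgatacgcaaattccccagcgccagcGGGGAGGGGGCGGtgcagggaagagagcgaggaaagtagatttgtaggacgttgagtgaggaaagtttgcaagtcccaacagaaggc
Col4a6: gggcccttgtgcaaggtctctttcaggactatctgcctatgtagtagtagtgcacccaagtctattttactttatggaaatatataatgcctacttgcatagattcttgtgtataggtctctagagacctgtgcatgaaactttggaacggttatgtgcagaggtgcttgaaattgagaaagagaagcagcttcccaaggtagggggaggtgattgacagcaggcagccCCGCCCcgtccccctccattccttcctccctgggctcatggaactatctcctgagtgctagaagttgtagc
The GC box was found in 35.7% of the 32851 promoter windows of the same length, the CCAAT box in 37.4%, the CTC box in 10.8% and the TATA box in 13.6%. *Col4a1* held 1 GC box, 1 CCAAT box and 1 CTC box, and *Col4a2* held 3, 1 and 1. The *Col4a5* window held 1 GC box, 1 CCAAT box and 1 CTC box, of which the GC and CTC boxes overlap, and *Col4a6* held 1 GC box and neither of the others. The letters of the TATA box were not found in these 4 windows. GC content was 74.0% with 37 CpG in *Col4a1*, 73.7% with 33 in *Col4a2*, 52.7% with 11 in *Col4a5* and 48.3% with 3 in *Col4a6*, beside a median of 52.7% over all promoter windows. Both members of the first pair were among the most abundant chains measured, whereas *Col4a5* and *Col4a6* of the second pair had mean levels of 7.45 and 0.135 normalized CPM per kb in CD44LowKitNeg.

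The titles of the CD44LowKitPos and CD44High libraries, and of no others, carry a mark, KG, that the labels do not explain, so whatever it stands for cannot be told apart from population where these are compared with CD44LowKitNeg. Library totals ran from 3912350 to 8657546 counts (median 5758382.5), and in a library without a count of a gene as many as 3 counts remain possible, or 0.348 to 0.816 normalized CPM (counts scaled to library size by TMM). The ribosomal precursor *Rn45s* took 1.92% to 23.9% of the counts. *Cd44* was at 29.9 ± 19.5 (SD, n = 10) normalized CPM in CD44Neg, 254 ± 78.7 (n = 6) in CD44LowKitNeg, 257 ± 85.2 (n = 3) in CD44LowKitPos and 268 ± 87.2 (n = 3) in CD44High. *Kit* was at 51, 46.9, 229.7 and 75.9 in the same order, and *Ptprc*, which encodes the pan-leukocyte protein CD45, at 0, 0.0216, 78.6 and 415. *Cdh5*, which encodes VE-Cadherin itself, was at 344, 956 and 168 in the first 3 populations but had no count in any CD44High library, in spite of the gate. The 10 macrophage markers all had counts in each CD44High library, with a summed level of 3759.7 to 6086 normalized CPM, against 1.21 to 17 in CD44Neg, 0 to 72.4 in CD44LowKitNeg and 168 to 230.0 in CD44LowKitPos, where *C1qa*, *C1qb*, *C1qc* and *Adgre1* were at 0. The 10 endothelial markers summed to 4627 to 7744, 4708 to 11549, 1134 to 2557 and 72.3 to 157. The 10 haematopoietic markers, of which *Ptprc*, *Gfi1b* and *Ikzf1* were at 0 in CD44Neg, summed to 1.56 to 35.6, 12.1 to 277, 466 to 975 and 865 to 1115. The 15 mesenchyme markers summed to 0.465 to 126, 149 to 356, 161 to 313 and 0 to 898, and 5 to 7 of them were at 0 in each of the first 3 populations (*Lum*, *Tbx18* and *Prrx2* in all 3). The 3 CD44High libraries stood apart from each other on this list, with 12 markers detected in replicate 20, 9 in replicate 21 and 0 in replicate 22, so results that rest on CD44High are also given without replicates 20 and 21. The 10 erythroid markers summed to 2.61 to 23.7, 21.5 to 61.3, 9.93 to 29.2 and 58.8 to 285, and the 10 epithelial markers to 0 to 33.5, 26.5 to 87.2, 68.4 to 85.5 and 4.35 to 28.5.

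The basement membrane chains made up most of the collagen and laminin RNA of the endothelial populations. Their summed level was 1769 ± 596 normalized CPM (SD, n = 10) in CD44Neg and 2984 ± 1373 (n = 6) in CD44LowKitNeg, and it was 392 ± 204 (n = 3) in CD44LowKitPos and 37 ± 22.5 (n = 3) in CD44High. At E11 the CD44Neg libraries lay at 2002 to 2537 and the CD44LowKitNeg libraries at 3728 to 4759. At E10 these 2 populations overlapped, at 1821 to 2133 and 1820 to 2272. At E9.5 the 1 CD44LowKitNeg library, at 1313, lay within the CD44Neg range of 899 to 1542. The lowest CD44LowKitNeg library, at 1313, lay above the highest CD44LowKitPos library, at 621, and the highest CD44High library, at 52.5, lay below every CD44LowKitPos library. In these bulk samples, fewer cells of a type and less RNA per cell cannot be told apart. Fibrillar chains summed to 79.7 ± 20.3, 387 ± 236, 15.1 ± 7.78 and 135 ± 113 in the same order, so the mean, like that of the basement membrane chains, was highest in CD44LowKitNeg. That order rests on *Col5a2*, at a mean of 352 in CD44LowKitNeg: without it the means were 16.4, 34.7, 6.62 and 126, and the CD44High libraries, at 19.3 to 220.3, overlapped with those of CD44LowKitNeg, at 16.4 to 66.1. With *Col5a2* included, the CD44High libraries, at 19.3 to 245, overlapped with those of CD44LowKitPos, at 8.84 to 23.8. All 55 chains together took 0.190%, 0.351%, 0.0441% and 0.0182% of the counts.

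A few chains carried nearly all of this level. The 7 most abundant in CD44Neg, *Col4a1*, *Col4a2*, *Col18a1*, *Lamb1*, *Lama4*, *Lamc1* and the fibrillar *Col5a2*, held 92.9% of the counts of all chains in CD44Neg, 89.1% in CD44LowKitNeg, 90.6% in CD44LowKitPos and 20.9% in CD44High. The set was kept the same in the other populations, although in CD44LowKitNeg *Lama3*, at a mean of 138 normalized CPM, stood above *Lama4*, at 104. Its share in CD44High thus does not measure how few chains held the level there. Only 9 of the 55 chains reached 100 normalized CPM in any library, and 30 stayed below 10 in every library. *Col8a2* and *Col28a1* had no count at all. Of the 19 basement membrane chains, 13 reached 10 normalized CPM and 8 reached 100, against 7 and 1 of the 11 fibrillar and 5 and 0 of the 25 other collagen chains. Per kilobase of exon, which allows levels to be compared between genes, CD44Neg libraries had a mean level of 79.5 normalized CPM per kb of *Col4a1*, 47 of *Col18a1*, 44.6 of *Col4a2*, 20.5 of *Lamb1*, 13.9 of *Lama4* and 12.1 of *Lamc1*. In CD44LowKitNeg the same order began with 119 for *Col4a1*, 108 for *Col18a1* and 85.1 for *Col4a2*, but *Lama3*, at 12.8, stood above *Lamc1*, at 11.8, and *Lama4*, at 8.59. The level of *Col4a2* per kb was 0.547 ± 0.0871 times that of *Col4a1* in CD44Neg (n = 10) and 0.663 ± 0.164 in CD44LowKitNeg (n = 6), ratios whose spreads overlap. The 3 E11 CD44LowKitNeg libraries, at 0.762, 0.798 and 0.863, lay above every CD44Neg library, the highest of which was at 0.655. The earlier CD44LowKitNeg libraries were at 0.474, 0.528 and 0.552. No test was run on these ratios.

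**Figure D1:**
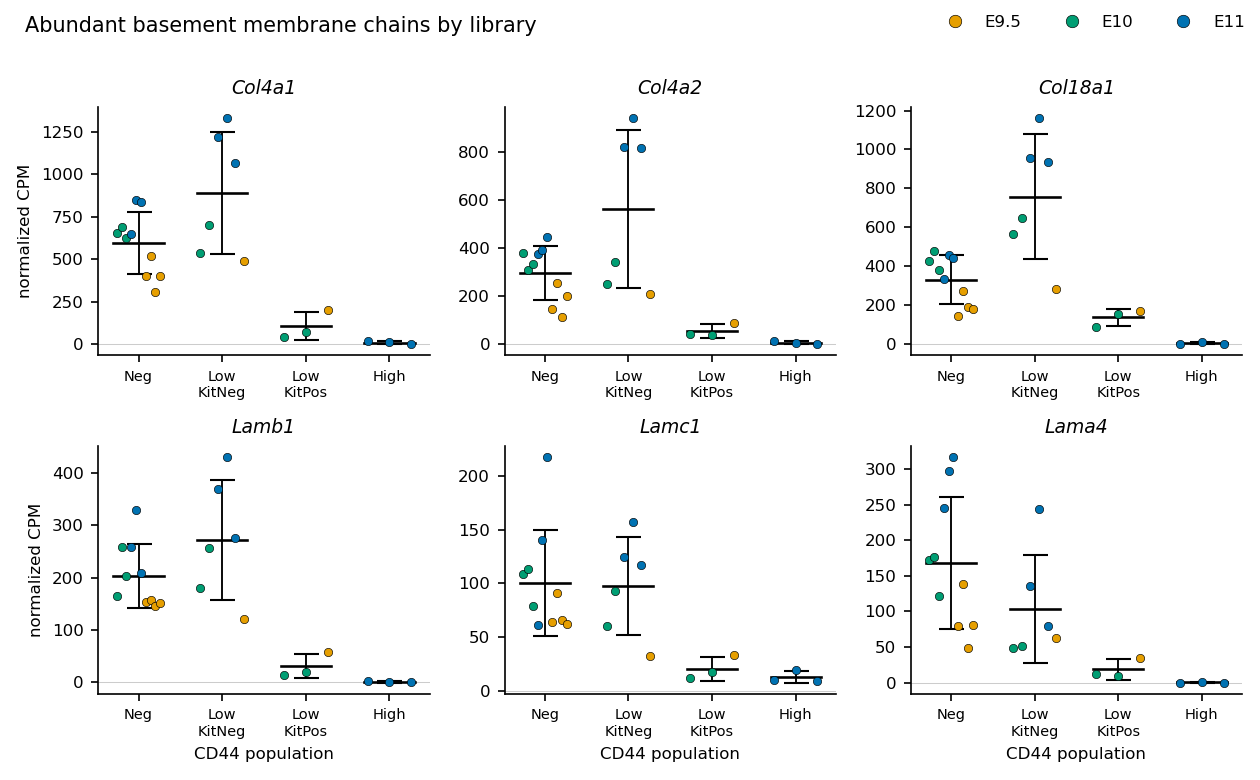
Level of 6 basement membrane chains in normalized CPM (vertical axis, own scale per panel) in each library of the 4 populations (horizontal axis). Points are libraries coloured by embryonic stage, bars are means and whiskers are SDs. The *Col4a1* points lie at 305 to 848 in CD44Neg, 492 to 1331 in CD44LowKitNeg, 43.3 to 201 in CD44LowKitPos and 0 to 15.6 in CD44High.

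CD44LowKitNeg and CD44Neg differed in some of the basement membrane chains and in the fibrillar *Col5a2*. Among 21 chains tested, 5 rose and 1 fell in CD44LowKitNeg at an adjusted p under 0.01 (edgeR quasi-likelihood test, Benjamini-Hochberg over all genes). Over all 11022 genes tested, 10.2% were called in this comparison, 4.94% higher and 5.23% lower. The median log2 fold change of the 21 chains was 1.17, beside 0.005 over all genes. The 5 that rose were the type IV chain *Col4a5*, the laminin α chains *Lama3* and *Lama5*, the type V chain *Col5a2* and *Col18a1*, and the 1 that fell was *Lama1*. By class, 4 of 13 tested basement membrane chains rose and 1 fell (median 0.94), 1 of 6 fibrillar chains rose (median 1.89), and edgeR called 0 of 2 other collagen chains, 0 of them at an unadjusted p under 0.05.

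The 2 principal type IV chains, which form the common α1α1α2 trimer of the basement membrane, were high in both endothelial populations. *Col4a1* ran from 305 to 848 with a median of 636 normalized CPM in the 10 CD44Neg libraries and from 492 to 1331 with a median of 883 in the 6 CD44LowKitNeg libraries. The groups overlap, and the log2 fold change of 0.59, SE 0.24, adjusted p = 0.092 (edgeR) was not called. *Col4a2* ran from 113 to 446 with a median of 322 and from 207 to 942 with a median of 579, again with overlap and no call (log2 fold change 0.94, SE 0.33, adjusted p = 0.05). *Col4a5*, a chain of the α3α4α5 and α5α5α6 trimers (chrX:141475385-141689234 on mm10), was the type IV gene called. It ran from 0 to 4.28 with a median of 1.93 in CD44Neg and from 16.8 to 88.3 with a median of 45.6 in CD44LowKitNeg, so that every CD44LowKitNeg library lay above every CD44Neg library, and the log2 fold change was 4.64, SE 0.70, adjusted p = 1.4e-04 (edgeR). Per kb, *Col4a5* was 5.80% of *Col4a1* in CD44LowKitNeg, with a range of 3.47 to 8.06%. Its neighbour *Col4a6*, whose start lies 1343 bases away on the opposite strand, stayed at 1.37 ± 2.29 (n = 10) in CD44Neg and 1.08 ± 0.662 (n = 6) in CD44LowKitNeg, too low to be tested.

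*Col18a1*, the source of the angiogenesis inhibitor endostatin (chr10:77052178-77166548 on mm10), ran from 145 to 477 with a median of 355 normalized CPM in CD44Neg and from 281 to 1161 with a median of 792 in CD44LowKitNeg. The groups overlap, and the log2 fold change was 1.21, SE 0.29, adjusted p = 0.0053 (edgeR). The call was lost without CD44Neg replicate 5 or without any of the 3 E11 CD44LowKitNeg replicates. *Col15a1*, the other multiplexin of vascular basement membranes, ran from 4.10 to 55.3 with a median of 24.4 in CD44Neg and from 3.25 to 14.4 with a median of 5.54 in CD44LowKitNeg, with a fitted log2 change of -1.79, SE 0.58, adjusted p = 0.033, which was not called. These 2 related collagens thus had estimates of opposite sign.

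Of the 4 laminin α chains described next, 2 rose, 1 fell and 1 was not called. *Lama4*, the most abundant α chain of CD44Neg, ran from 48.4 to 317 with a median of 155 normalized CPM in CD44Neg and from 49 to 244 with a median of 70.4 in CD44LowKitNeg, with a fitted log2 change of -0.68, SE 0.41, adjusted p = 0.26 (edgeR), not called. *Lama3*, a chain known from the laminins of epithelia, ran from 0.619 to 41.8 with a median of 8.29 and from 42.5 to 238 with a median of 132, and all 6 CD44LowKitNeg libraries lay above the 10 CD44Neg libraries (log2 fold change 3.38, SE 0.63, adjusted p = 8.0e-04). *Lama5*, the other vascular α chain (chr2:180176373-180225859 on mm10), ran from 0.929 to 26.7 with a median of 5.63 and from 30.9 to 131 with a median of 57.8, again without overlap (log2 fold change 2.94, SE 0.48, adjusted p = 3.0e-04). *Lama1*, the α chain of the earliest embryonic basement membranes (chr17:67697259-67822647 on mm10), went the other way. It ran from 4.34 to 37.9 with a median of 17.6 in CD44Neg, whereas only 2 of 6 CD44LowKitNeg libraries had a count and the highest was at 2.79, below every CD44Neg library (log2 fold change -4.70, SE 1.02, adjusted p = 0.0028). *Lama2*, the muscle and nerve chain, had counts in 1 of 10 and 1 of 6 libraries.

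As shares of the summed level of the 5 α chains per kb, *Lama4* made 75.2% ± 13.6 (SD, n = 10) in CD44Neg and 30.9% ± 9.75 (n = 6) in CD44LowKitNeg. The lowest CD44Neg library was at 59.9% and the highest CD44LowKitNeg library at 42.9%. *Lama3* and *Lama5* together made 12.5% ± 8.92 in CD44Neg, 68.7% ± 9.86 in CD44LowKitNeg and 54.3% in CD44LowKitPos, whose 3 libraries ran from 38.9 to 62.3%. No test was run on these shares, which use the same counts as the tests of the single genes. *Lama3* alone made 47% of the α chain level in CD44LowKitNeg but 17.6% in CD44LowKitPos, where *Lama5* had 36.7%. *Lama1* made 12.1% of the CD44Neg level, with a range of 1.67 to 27.3%, and at most 0.902% in any CD44LowKitNeg library. By stage, the *Lama1* share in CD44Neg ran from 14.0 to 27.3% at E9.5, 7.04 to 11.7% at E10 and 1.67 to 5.62% at E11. That of *Lama4* ran from 59.9 to 68.0%, 62.6 to 80.4% and 88.5 to 97.8% at these stages.

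**Figure D2:**
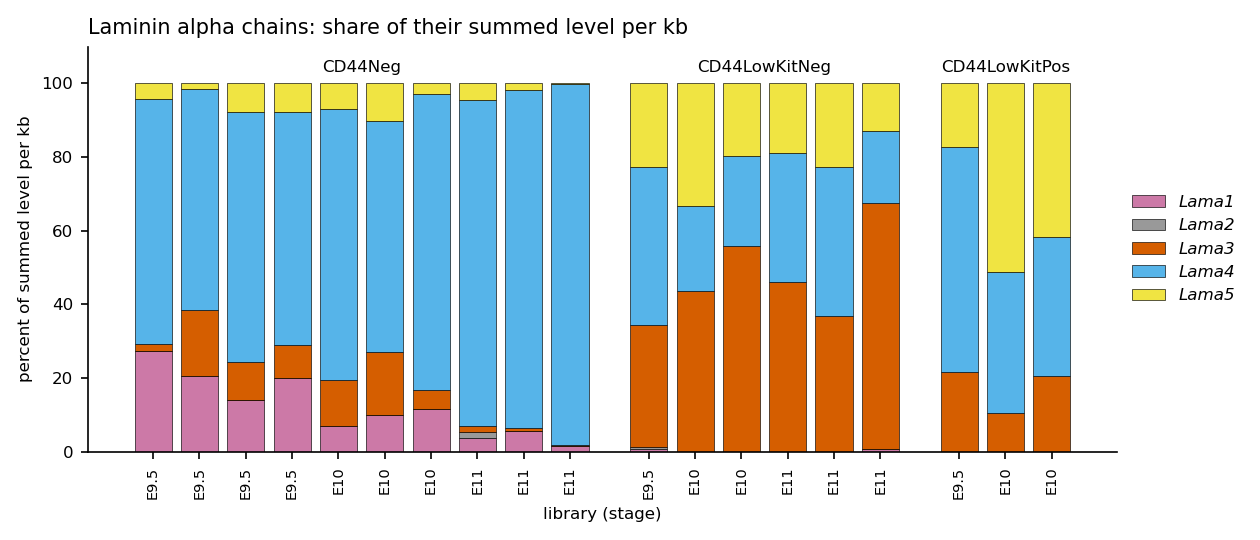
Share of each laminin α chain in the summed level per kb of the 5 α chains, in percent (vertical axis), as a stacked bar for each library of CD44Neg, CD44LowKitNeg and CD44LowKitPos. *Lama4* holds 59.9 to 97.8% of the bars of CD44Neg and 19.6 to 42.9% of those of CD44LowKitNeg.

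None of the main β and γ chains, of which every laminin trimer holds one each, was called between the 2 endothelial populations. *Lamb1*, the main β chain, ran from 147 to 330.2 with a median of 184 normalized CPM in CD44Neg and from 120.2 to 431 with a median of 267 in CD44LowKitNeg (log2 fold change 0.43, SE 0.24, adjusted p = 0.24 from edgeR). *Lamc1*, the main γ chain, ran from 61.5 to 218 with a median of 84.6 and from 32.3 to 157 with a median of 105 (log2 fold change -0.035, SE 0.32, adjusted p = 0.96), an estimate near 0 whose sign changed with the scaling. *Lamb2*, the β chain of mature vessels, ran from 0.745 to 27.7 with a median of 11.9 and from 4.20 to 52.7 with a median of 20.9 (log2 fold change 1.17, SE 0.63, adjusted p = 0.21). Its sign turned in the E9.5 and E10 libraries alone, where the log2 fold change was -0.39. *Lamb1* held 92.1% of the β chain level per kb in CD44Neg and 88.8% in CD44LowKitNeg, and *Lamc1* held 98.1% and 88.5% of the γ chain level. *Lamc3*, a γ chain of minor expression, was at 1.04 ± 1.70 (n = 10) and 10.7 ± 14 (n = 6) normalized CPM and was not called, and its exons overlap an antisense gene over 6.27% of their length.

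Among fibrillar chains, *Col5a2* was the only one called between the endothelial populations and the only one above 100 normalized CPM in any library. It encodes the α2 chain of type V collagen, which helps to start fibrils and limits their width. It ran from 44.7 to 104 with a median of 53.8 normalized CPM in CD44Neg and from 116 to 583 with a median of 356 in CD44LowKitNeg, without overlap (log2 fold change 2.49, SE 0.32, adjusted p = 3.1e-05 from edgeR). *Col5a1*, which encodes the α1 chain that pairs with α2 in the type V trimer, was at 5.13 ± 4.61 (n = 10) in CD44Neg and 1.59 ± 1.74 (n = 6) in CD44LowKitNeg (log2 fold change -1.67, SE 1.15, adjusted p = 0.34), not called. *Col1a1* had no count in any library of CD44Neg, CD44LowKitNeg or CD44LowKitPos. *Col1a2* was at 2.46 ± 3.29 (n = 10) and 10.1 ± 11.2 (n = 6) (log2 fold change 2.05, SE 1.22, adjusted p = 0.26), and *Col3a1*, the type III chain, at 3.43 ± 7.50 (n = 10) and 12.9 ± 14.1 (n = 6) (1.93, SE 1.47, adjusted p = 0.4), both with overlapping groups and no call. *Col1a2* had counts in 5 and *Col3a1* in 4 of the 6 CD44LowKitNeg libraries. The sum of the mesenchyme markers, at 149 to 356 normalized CPM, was higher in every CD44LowKitNeg library than in any CD44Neg library, at 0.465 to 126. Most of each CD44LowKitNeg sum came from *Acta2*, which encodes smooth muscle actin, at 76.5 to 289, and *Tagln*, at 16 to 65.1. Taken singly, both genes overlapped with CD44Neg, where they ran from 0 to 105 and from 0 to 55.1. Of the 3 markers tested, edgeR called 0, with 1 at an unadjusted p under 0.05. The part of the mesenchyme markers in the level of the fibrillar chains was not tested.

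**Figure D3:**
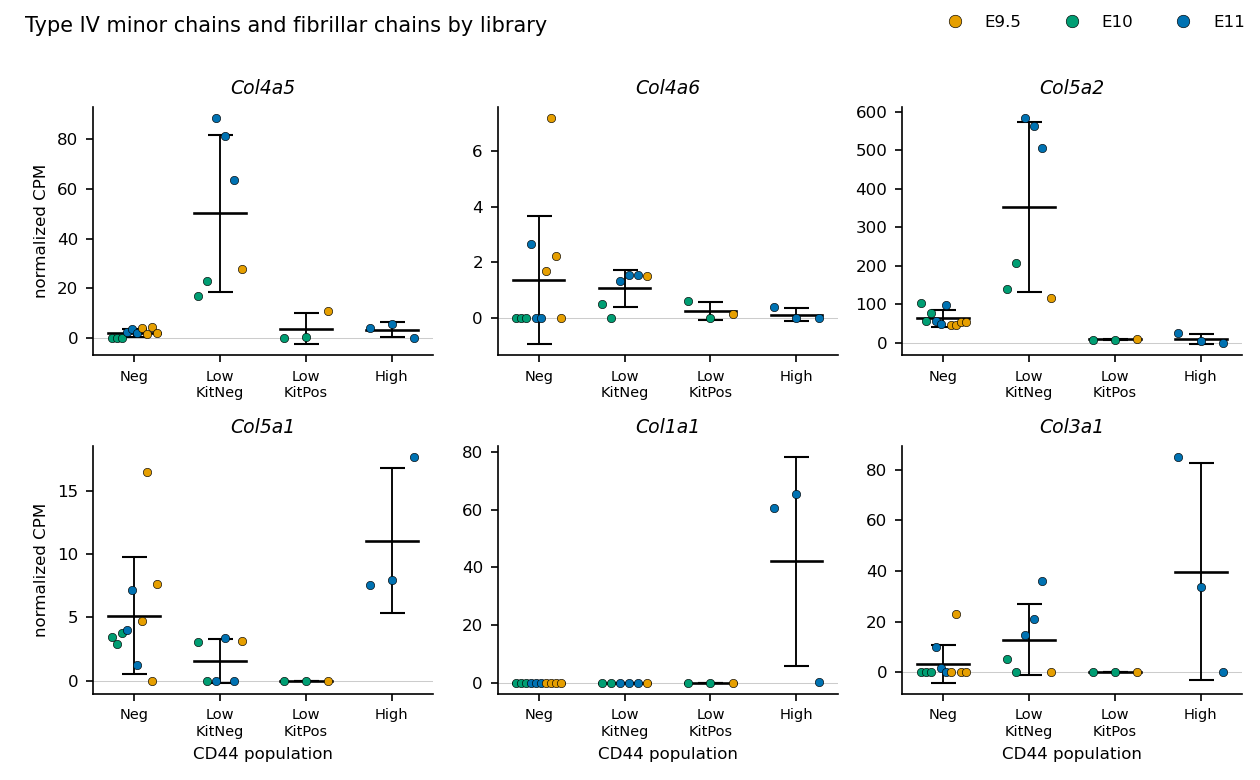
Level of the minor type IV chains *Col4a5* and *Col4a6* and of 4 fibrillar chains in normalized CPM (vertical axis, own scale per panel) in each library of the 4 populations (horizontal axis). Points are libraries coloured by stage, bars are means and whiskers are SDs. *Col1a1* is at 0 in the first 3 populations and at 60.6, 65.5 and 0.272 in CD44High.

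The date in the labels changes with the stage, so each stage also stands for a date. The difference was therefore computed within E11 and within the earlier stages together. The earlier set pooled E9.5 and E10 without a term for stage. It held 1 and 2 CD44LowKitNeg libraries against 4 and 3 of CD44Neg, so stage and population were partly mixed there. In the E11 libraries alone (3 against 3), 5 chains were called, all higher, with 3.41% of all genes called, and in the E9.5 and E10 libraries alone (3 against 7) 2 were called, 1 higher and 1 lower, with 2.69% of all genes. The log2 fold change of *Col4a5* was 4.93 (adjusted p = 3.7e-04) at E11 and 3.69 (adjusted p = 0.054) at the earlier stages. That of *Col5a2* was 3.09 (adjusted p = 3.7e-04) and 1.36 (adjusted p = 0.0089), and that of *Lama3* 6.52 (adjusted p = 3.3e-04) and 2.13 (adjusted p = 0.047). *Col5a2* was called in either set, and *Lama3* was called at E11 only, with the same sign earlier. *Lama5* had 3.89 (adjusted p = 0.015) and 2.31 (adjusted p = 0.021), *Col18a1* 1.37 (adjusted p = 0.0021) and 0.80 (adjusted p = 0.16), and *Lama1* -3.21 (adjusted p = 0.32) and -5.69 (adjusted p = 0.0074). *Col4a2*, not called over all stages, was called at E11 with 1.15 (adjusted p = 0.0021) and not earlier, with 0.15 (adjusted p = 0.84). The difference between E10 and E11, without the E9.5 libraries, was tested as an interaction, which called none of these chains. In simulated data this interaction recovered 7 of 200 changes of 8-fold, so the absence of calls does not show that the stages were alike. With stage as a covariate, 7 chains and 11.9% of all genes were called, and *Lama4* then fell with a fitted log2 change of -1.03 (adjusted p = 0.0083 from edgeR).

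Genes listed as basement membrane partners were among those higher in CD44LowKitNeg than in CD44Neg. Over all genes, 10.2% were called in this comparison, 4.94% higher and 5.23% lower. Of the 31 listed basement membrane partners, 22 were tested and 9 rose (median log2 fold change 0.82). The largest were *Eln*, which encodes elastin (6.20), *Efemp1* (5.86), *Fbln2* (4.57), *Fbn1*, which encodes fibrillin-1 (3.72), *Fn1*, which encodes fibronectin (2.60), and *Agrn*, which encodes the laminin-binding agrin (1.76). *Fn1* went from 420.2 ± 148 (n = 10) to 2534 ± 681 (n = 6) normalized CPM, which is above the mean level of every collagen or laminin chain, and *Fbn1* from 49.2 ± 27.6 (n = 10) to 643 ± 189.7 (n = 6). *Nid1*, which encodes the linker of laminin and type IV collagen, was at 372 ± 58.2 (n = 10) and 596 ± 68.6 (n = 6), with a fitted log2 change of 0.69 (SE 0.13, adjusted p = 8.6e-04). The enzymes that modify and fold collagen did not share a direction. Of 24 tested, 2 rose (*P4ha3* by 5.44, a prolyl hydroxylase, and *Plod1* by 1.57, a lysyl hydroxylase) and 2 fell (*Colgalt2* at -4.58 and *Serpinh1*, the collagen chaperone HSP47, at -0.75), with a median of 0.40. Among 16 proteases and inhibitors, 2 rose (*Htra1* 6.24 and *Timp2* 2.62) and 3 fell (*Adamts9* -4.45, *Plau* -2.59 and *Timp3* -1.66), with a median of 0.49. Of 9 collagen and laminin receptors, 1 was called, the ribosomal protein and laminin-binding *Rpsa* (-0.84), with a median of 0.60.

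Between CD44LowKitNeg and CD44LowKitPos, the calls fell on the main chains of the basement membrane and on *Col5a2*. Of 29 chains tested, 5 fell and 0 rose at an adjusted p under 0.01, while 4.26% of all 12949 genes were called and 1.71% were lower. The 5 were *Col4a1*, *Col4a2*, *Lamb1*, *Lamc1* and *Col5a2*, that is 4 of 14 basement membrane and 1 of 7 fibrillar chains. The median log2 fold change of the 29 chains was -3.29, or -3.09 with the 6 genes that had no count in a group set at the bound that 3 counts allow, beside -0.021 over all genes, and 19 of them had an unadjusted p under 0.05, 18 of these lower. Over all 12949 genes, 3525 had an unadjusted p under 0.05. For the basement membrane chains the median was -3.21, or -3.11 with 1 gene at its bound.

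*Col4a1* was at 43.3, 70.6 and 201 normalized CPM in CD44LowKitPos replicates 17, 18 and 19, all below the lowest CD44LowKitNeg library at 492 (log2 fold change -3.09, SE 0.65, adjusted p = 0.0043 from edgeR). *Col4a2* was at 41.1, 36.2 and 89.4, with a lowest CD44LowKitNeg value of 207 (log2 fold change -3.34, SE 0.69, adjusted p = 0.0037). Replicate 19, the E9.5 library, was the highest of the 3 for *Col4a1* and *Col4a2*. *Lamb1* was at 14.7, 20.5 and 58 (log2 fold change -3.13, SE 0.57, adjusted p = 0.0017) and *Lamc1* at 11.6, 17.3 and 33.2 (log2 fold change -2.23, SE 0.51, adjusted p = 0.0063). The *Lamb1* groups do not overlap, whereas the highest CD44LowKitPos value of *Lamc1*, 33.2, lies just above the lowest of CD44LowKitNeg, 32.3. *Col5a2* had the largest fall among the called chains, to 7.75, 7.47 and 10.3, below its level in CD44Neg (log2 fold change -5.37, SE 0.86, adjusted p = 5.4e-04).

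Several further chains lay wholly below CD44LowKitNeg without being called, and the share of all genes that do so was not computed. *Col18a1* was at 87.6, 153 and 168 (log2 fold change -2.48, SE 0.61, adjusted p = 0.0104 from edgeR), *Lama4* at 11.3, 9.07 and 34.7 (-2.50, SE 0.64, adjusted p = 0.013), *Lama3* at 2.79, 4.40 and 11 (-4.50, SE 1.11, adjusted p = 0.011) and *Lama5* at 14.3, 9.47 and 9.20 (-2.55, SE 0.81, adjusted p = 0.041). *Col15a1* had -3.36, SE 1.04, adjusted p = 0.038. *Lamb2*, whose highest CD44LowKitPos value of 4.22 lay just above the lowest of CD44LowKitNeg at 4.20, had -3.29, SE 1.05, adjusted p = 0.041. By mean, *Col18a1* had the highest level of all chains in CD44LowKitPos, at 19.4 normalized CPM per kb beside 14 for *Col4a1* and 8.39 for *Col4a2*, but in replicate 19 *Col4a1*, at 26.9, stood above *Col18a1*, at 23.9. Of the fibrillar chains, *Col3a1* and *Col5a1* had no count in CD44LowKitPos, which puts *Col3a1* at least 29.3-fold and *Col5a1* at least 3.61-fold lower than the CD44LowKitNeg mean against the limit of 3 counts per library, and neither was called (adjusted p = 0.098 and 0.055). That mean of *Col3a1* rests mostly on the E11 libraries, at 14.8, 21.1 and 36.1, a stage without CD44LowKitPos libraries. In the E9.5 and E10 CD44LowKitNeg replicates 14, 15 and 16, *Col3a1* was at 0, 5.37 and 0. *Col1a2* had a fitted log2 change of -1.59, SE 1.87, adjusted p = 0.64.

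This comparison sets 3 E11 and 3 earlier libraries against earlier libraries only. In the E9.5 and E10 libraries alone (3 against 3), edgeR called 0 of 16 tested chains and 0.00% of all genes, with 10 chains at an unadjusted p under 0.05. Of all 11059 genes tested there, 2135 had an unadjusted p under 0.05. The log2 fold changes there were -2.51 (adjusted p = 0.088) for *Col4a1*, -2.31 (adjusted p = 0.061) for *Col4a2*, -2.63 (adjusted p = 0.088) for *Lamb1*, -1.63 (adjusted p = 0.15) for *Lamc1* and -4.22 (adjusted p = 0.011) for *Col5a2*. With stage as a covariate, *Lamb1* (-2.68, adjusted p = 0.0041) and *Col5a2* (-4.71, adjusted p = 0.0017) were the 2 called, with 2.83% of all genes. Without CD44LowKitPos replicate 17 or replicate 18, 1 chain was called, *Col5a2*, and *Lamc1* also lost its call without any of the 3 E11 CD44LowKitNeg libraries. The endothelial markers moved the same way in these libraries (summed level 4708 to 11549 in CD44LowKitNeg and 1134 to 2557 in CD44LowKitPos), and their part in the result was not tested.

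Over all genes, 4.26% were called between CD44LowKitPos and CD44LowKitNeg and 1.71% were lower. Of the 31 partners, 28 were tested and 10 fell (median log2 fold change -2.65, or -2.55 with 3 genes at their bound). They included *Tinagl1* (-4.59), *Fbn1* (-3.89), *Hspg2*, which encodes perlecan (-3.88), *Mmrn2* (-3.16), *Nid1* (-2.69) and *Agrn* (-2.69). *Plod1* (-2.65) and *Serpinh1* (-1.50) were the 2 of 26 assembly genes called (median -1.38). *Itgb1*, the β1 subunit shared by most collagen- and laminin-binding integrins, was the 1 receptor of 13 called (-1.22, median -1.22, or -1.13 with 4 genes at their bound), from 977 ± 178 (n = 6) to 419.9 ± 13.3 (n = 3) normalized CPM. Among 17 proteases and inhibitors, *Htra1* (-5.60), *Mmp2* (-2.65) and *Adamts4* fell, the last from 5.33 ± 4.80 (n = 6) to 0, with a list median of -2.11, or -1.88 with 2 genes at their bound.

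In CD44High the basement membrane chains were lower still. Against CD44LowKitPos, 5 of 29 chains fell and 0 rose, with 3.01% of all genes called and 2.23% lower (limma voom called none of the 5 falls and 1 rise, *Col5a1*), and against CD44LowKitNeg 12 of 29 fell and 0 rose, with 16% called and 8.17% lower. The median log2 fold change of the 14 basement membrane chains tested was -3.47, or -2.24 with 4 genes at their bound against CD44LowKitPos and -6.68, or -5.22 with 3 genes at their bound against CD44LowKitNeg. Over all 29 chains the medians were -0.67, or 0 with 11 genes at their bound, and -3.89, or -3.12 with 7 genes at their bound, beside -0.023 and 0.00 over all genes. These 2 comparisons share the CD44High libraries. The 10 endothelial markers all fell in either comparison (median log2 fold change -5.84 against CD44LowKitPos and -8.32 against CD44LowKitNeg), while 6 and 10 of the 10 macrophage markers rose, and their part in the fall of the chains was not tested.

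*Col4a1* was at 15.6, 9.59 and 0 normalized CPM in CD44High replicates 20, 21 and 22, below every CD44LowKitPos library (log2 fold change -3.61, SE 0.73, adjusted p = 0.0024 from edgeR). *Col4a2* was at 10.3, 5.86 and 0 (-3.33, SE 0.76, adjusted p = 0.0075), *Col18a1* at 0.594, 7.46 and 0 (-5.70, SE 0.80, adjusted p = 4.1e-05) and *Lamb1* at 2.38, 0 and 0 (-5.08, SE 0.76, adjusted p = 8.2e-05). In all 4 genes the CD44High libraries lay below the 3 CD44LowKitPos libraries, and replicate 22, which had no mesenchyme marker, had no count of any of them. *Lama4* had 1 count over the 3 libraries, which makes its level 207-fold lower than in CD44LowKitPos with a counting interval of 37.1 to 8168 (adjusted p = 1.9e-04). The call of *Col4a1* was lost without CD44LowKitPos replicate 19 or CD44High replicate 21, and that of *Col4a2* in 10 of the 22 fits that left out 1 library. *Col18a1*, *Lama4* and *Lamb1* were called in all 22. No stage holds both populations, so stage and population cannot be told apart here.

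*Lamc1* was the exception among the main chains. It was at 10.5, 19.2 and 9.52 in CD44High and 11.6, 17.3 and 33.2 in CD44LowKitPos, groups that overlap (log2 fold change -0.67, SE 0.54, adjusted p = 0.6 from edgeR), although it lay below every CD44LowKitNeg library (log2 fold change against it -2.90, SE 0.53, adjusted p = 2.5e-04). Per kb, *Lamc1* was thus the most abundant laminin chain in CD44High, at 1.58 normalized CPM per kb, beside 0.151 for *Lamb2*, 0.107 for *Lama5* and 0.0798 for *Lamb1*. *Lama5* was at 0.990, 2.66 and 0 (-3.16, SE 0.95, adjusted p = 0.05) and *Lamb2* at 0.594, 0.533 and 1.63 (-1.44, SE 1.11, adjusted p = 0.57), not called against CD44LowKitPos. *Col15a1* had no count in CD44High and was not called (adjusted p = 0.13), and no fold is given because both groups lay near the limit of a count of 0.

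Against CD44LowKitNeg, the 12 chains that fell were *Lamb1* (-8.21, SE 0.80, adjusted p = 8.2e-08), *Col18a1* (-8.17, SE 0.86, adjusted p = 2.3e-07), *Col4a1* (-6.70, SE 0.81, adjusted p = 1.5e-06), *Col4a2* (-6.67, SE 0.85, adjusted p = 2.9e-06), *Lama5* (-5.70, SE 1.01, adjusted p = 1.7e-04), *Col5a2* (-5.20, SE 0.85, adjusted p = 7.2e-05), *Lamb2* (-4.73, SE 1.17, adjusted p = 0.0039), *Lamc1*, *Lama4*, *Lama3*, *Col15a1* and *Col23a1*. Their values are log2 fold changes from edgeR. *Lama3*, *Col15a1* and the transmembrane collagen *Col23a1* had no count in CD44High, and against the limit of 3 counts per library *Lama3* was at least 187-fold lower, *Col15a1* at least 9.15-fold lower and *Col23a1* at least 33.2-fold lower (adjusted p = 6.7e-05, 7.7e-04 and 8.5e-04). For *Lama4* the ratio was 1168 with a counting interval of 209.7 to 46143 (adjusted p = 8.9e-07). Within E11 alone (3 against 3), 12 of 19 tested chains fell and 10.3% of all genes were called. Without CD44High replicates 20 and 21, which leaves 1 CD44High library whose spread is taken from the other groups, 4 chains were called against CD44LowKitPos (1.77% of all genes) and 7 against CD44LowKitNeg (7.18%). The calls lost were that of *Lama4* against CD44LowKitPos and those of *Lama3*, *Lamb2*, *Lamc1*, *Col15a1* and *Col23a1* against CD44LowKitNeg. The estimates of *Lamb2* and *Lamc1* were then -3.95 and -3.38, and replicate 22, with no count of the other 3, was at least 169-fold lower than the CD44LowKitNeg mean for *Lama3*, at least 8.25-fold lower for *Col15a1* and at least 29.9-fold lower for *Col23a1*.

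**Figure D4:**
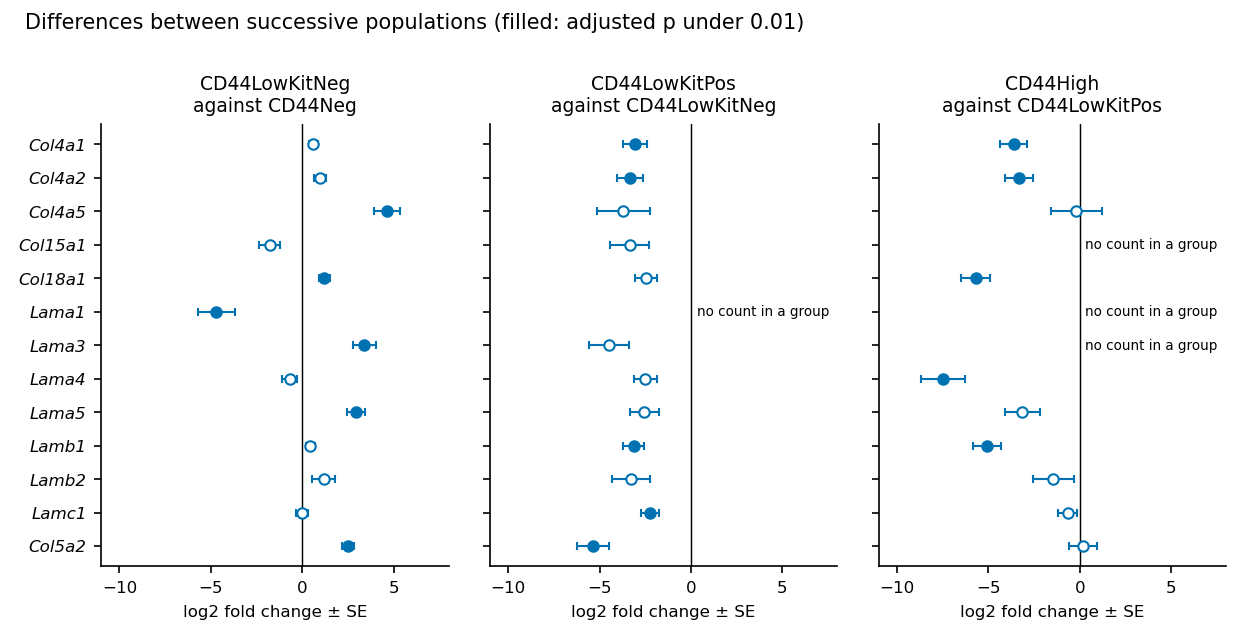
Log2 fold change (horizontal axis) of 13 chains (vertical axis) in 3 successive comparisons, CD44LowKitNeg against CD44Neg, CD44LowKitPos against CD44LowKitNeg and CD44High against CD44LowKitPos, with the SE as whiskers and filled points at an adjusted p under 0.01. *Col4a5*, *Lama3*, *Lama5*, *Col5a2* and *Col18a1* are filled above 0 and *Lama1* below 0 in the first, and every filled point of the other 2 lies below 0. Chains without a count in 1 of the groups have no point, and neighbouring comparisons share a population.

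Fibrillar collagens followed another pattern in CD44High, where they differed between libraries. *Col1a1* was at 60.6, 65.5 and 0.272 normalized CPM in replicates 20, 21 and 22, *Col1a2* at 30.7, 30.4 and 0 and *Col3a1* at 85.1, 33.8 and 0. *Col12a1*, a collagen that coats type I fibrils, was at 47.5, 61.5 and 0.272. All 4 were high in the first pair of libraries and at or near 0 in replicate 22. *Col5a1*, at 7.52, 7.99 and 17.7, had its highest value in replicate 22, and *Col5a2* was at 24.3, 3.73 and 0. The mesenchyme markers followed the same libraries. *Acta2*, smooth muscle actin, was at 598, 449 and 0 normalized CPM, *Postn* at 149, 21.6 and 0 and *Tagln* at 85.1, 75.1 and 0, while *Lum* and *Dcn*, which define fibroblasts, and *Pdgfra* were detected in replicate 20 only, at 9.11, 17 and 15.2. Their part in the level of the fibrillar chains was not tested.

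None of the fibrillar chains was called against CD44LowKitPos, where edgeR gave 0 of 7, 2 with an unadjusted p under 0.05, and a median of 2.59. Over all 12949 genes, 2306 had an unadjusted p under 0.05 in this comparison. The log2 fold changes were 2.59, SE 2.12, adjusted p = 0.6 for *Col1a2* and 0.18, SE 0.78, adjusted p = 0.97 for *Col5a2*, and *Col3a1* and *Col5a1* were compared with a group without counts (adjusted p = 0.11 for *Col3a1* and 0.025 for *Col5a1*). Against CD44LowKitNeg, *Col1a2* had 1.003, SE 1.68, adjusted p = 0.71, *Col3a1* 1.62, SE 1.90, adjusted p = 0.57 and *Col5a1* 2.78, SE 1.37, adjusted p = 0.14, none called. Replicate 22 alone had no count of *Col1a2*, *Col3a1* or *Col5a2*, so without replicates 20 and 21 the estimates of *Col1a2* against either population, of *Col3a1* against CD44LowKitNeg and of *Col5a2* against CD44LowKitPos changed sign. *Col1a1* did not pass the filter on low counts in any comparison.

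Genes of the partner, assembly and protease lists also fell in CD44High. Over all genes, 2.23% were called lower against CD44LowKitPos and 8.17% against CD44LowKitNeg. Of the partners, 6 of 28 fell against CD44LowKitPos (median log2 fold change -1.37, or -1.18 with 6 genes at their bound), namely *Nid1* (-4.43), *Fn1* (-3.31), *Fbln1* (-3.20), the collagen IV crosslinking peroxidase *Pxdn* (-2.93), *Egfl7* (-2.12) and *Mmrn2*, which had no count in CD44High. Against CD44LowKitNeg, 16 fell (median -4.32, or -4.25 with 4 genes at their bound). By mean level, *Nid1* went from 596 to 4.15 normalized CPM, *Hspg2* from 112 to 0.375, *Mmrn2* from 403 to 0, *Tinagl1* from 76.1 to 0, *Npnt* from 43.1 to 0 and *Fn1* from 2534 to 65.9. Of the assembly genes, 3 of 26 fell against CD44LowKitPos (*P3h3* -5.04, *Tgm2* -4.79 and *Serpinh1* -2.87, median -0.67) and 12 against CD44LowKitNeg (median -2.13, or -1.99 with 2 genes at their bound), among them *Serpinh1* from 132 to 6.26, *Fkbp10* from 91.7 to 4.46 and *P3h3* from 30.5 to 0.264. Of the proteases and inhibitors, *Mmp2* (-3.70) and *Reck* fell against CD44LowKitPos (2 of 17, median -2.19), the latter to a mean of 0 normalized CPM, and 8 fell against CD44LowKitNeg (median -3.54, or -3.32 with 3 genes at their bound), among them *Mmp2* from 532 to 6.46 and *Htra1* from 179.9 to 0.0660.

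Among the partner, assembly, receptor and protease lists, only that of the receptors had genes called higher in CD44High. Against CD44LowKitNeg, 5 of 13 were called (median log2 fold change -1.50), beside 16% of all genes. *Lair1*, an inhibitory collagen receptor of leukocytes, had no count in CD44LowKitNeg and was at 64.6 ± 24.6 (n = 3) normalized CPM, and *Rpsa* rose by 1.47. *Itga3* (from 10.7 to 0 normalized CPM), *Dag1*, which encodes dystroglycan (-2.08), and *Itgb1* (-1.50) fell. Against CD44LowKitPos edgeR called 0 of 13, with 7 at an unadjusted p under 0.05 and a median of 0.46, or 0.41 with 5 genes at their bound. There 3.01% of all genes were called, and 2306 of 12949 had an unadjusted p under 0.05.

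Within CD44Neg, 2 of 20 chains rose from E9.5 to E11, with 0.684% of all 11250 genes called and 0.391% higher. *Col4a1* was at 408 ± 88 (E9.5, n = 4), 657 ± 31.5 (E10, n = 3) and 778 ± 115 (E11, n = 3) normalized CPM (log2 fold change 0.95, SE 0.17, adjusted p = 0.0094 from edgeR), and *Lama4*, the vascular α chain, at 86.8 ± 37.6 (E9.5, n = 4), 157 ± 30.3 (E10, n = 3) and 286 ± 37.3 (E11, n = 3) (log2 fold change 1.74, SE 0.28, adjusted p = 0.0057). In either gene all E11 libraries lay above all E9.5 libraries. Other basement membrane chains had adjusted p-values just above the threshold, with log2 fold changes of 2.51, SE 0.47, adjusted p = 0.0104 for *Col15a1*, 1.08, SE 0.20, adjusted p = 0.011 for *Col18a1*, 1.20, SE 0.23, adjusted p = 0.012 for *Col4a2* and 0.83, SE 0.19, adjusted p = 0.032 for *Lamb1*. *Col15a1* was at 6.29 ± 2.59 (E9.5, n = 4), 34.7 ± 17.9 (E10, n = 3) and 35.3 ± 3.80 (E11, n = 3), so that its E10 and E11 means lie close together. *Lamc1* (1.01, SE 0.33, adjusted p = 0.12), *Lamb2* (1.67, SE 0.76, adjusted p = 0.28) and *Lama5* (0.081, SE 0.89, adjusted p = 0.98) were not called. The median of the 13 basement membrane chains was 0.95, that of all 20 chains 0.28 and that of all genes 0.03. The 10 endothelial markers had a median of 0.61, with 3 called, all higher, and their part in the rise of the chains was not tested. Among fibrillar chains (0 of 5, 0 with an unadjusted p under 0.05), the log2 fold changes were 0.49, SE 0.30, adjusted p = 0.46 for *Col5a2*, -0.78, SE 1.30, adjusted p = 0.85 for *Col5a1* and -1.67, SE 2.13, adjusted p = 0.79 for *Col1a2*, while *Col1a1* and *Col3a1* were too low to be tested. The *Col4a1* call was lost in 9 of the 10 fits that left out 1 library and that of *Lama4* in 5, so that 0 chains were called without CD44Neg replicate 1, 2, 3, 4 or 7, 1 without replicate 6, 8 or 10, and 4 without replicate 5.

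In CD44LowKitNeg the 3 E11 libraries were compared with the 3 earlier ones. edgeR called 0 of 23 chains, with 0.173% of all 11010 genes called, while 14 chains had an unadjusted p under 0.05, all higher at E11. Over all genes, 1851 of the 11010 had an unadjusted p under 0.05. DESeq2 called 9 chains and 5.07% of all genes, and limma voom 3 and 0.618%. The median log2 fold change was 1.54, beside 0.02 over all genes. The 10 endothelial markers had a median of 1.12, with 8 at an unadjusted p under 0.05 and 1 called, higher at E11. Of the haematopoietic markers 6 were tested, with a median of -3.63 and 1 called, lower. They summed to 116, 277 and 133 normalized CPM in replicates 14, 15 and 16, and to 12.1, 20.7 and 14.3 in the E11 replicates 11, 12 and 13. The part of these markers in the stage difference of the chains was not tested. *Col4a2* was at 207 (E9.5, n = 1), 297 ± 63.9 (E10, n = 2) and 860.1 ± 70.9 (E11, n = 3) normalized CPM (log2 fold change 1.73, SE 0.23, adjusted p = 0.012), *Col4a1* at 492 (E9.5, n = 1), 618 ± 114 (E10, n = 2) and 1205 ± 133 (E11, n = 3) (1.11, SE 0.20, adjusted p = 0.029) and *Col5a2* at 116 (E9.5, n = 1), 172 ± 48.2 (E10, n = 2) and 550.5 ± 39.8 (E11, n = 3) (1.88, SE 0.25, adjusted p = 0.012). In all 3 genes the 3 E11 libraries lay above the 3 earlier ones, but the share of all genes separated in this way was not computed. *Col4a5* was at 27.7 (E9.5, n = 1), 19.8 ± 4.30 (E10, n = 2) and 77.7 ± 12.8 (E11, n = 3) (1.83, SE 0.36, adjusted p = 0.04) and *Lama3* at 42.5 (E9.5, n = 1), 93.4 ± 16 (E10, n = 2) and 199 ± 39.3 (E11, n = 3) (1.42, SE 0.36, adjusted p = 0.081). For *Col18a1* the log2 fold change was 1.08, SE 0.30, adjusted p = 0.099, for *Lama4* 1.54, SE 0.40, adjusted p = 0.09, for *Lamb2* 2.47, SE 0.62, adjusted p = 0.083, for *Lamb1* 0.99, SE 0.31, adjusted p = 0.14, for *Lamc1* 1.14, SE 0.39, adjusted p = 0.17 and for *Lama5* 0.91, SE 0.46, adjusted p = 0.37. *Col15a1* had 0.78, SE 0.99, adjusted p = 0.78, *Col5a1* -0.80, SE 2.26, adjusted p = 0.92, *Col1a2* 2.04, SE 1.52, adjusted p = 0.58 and *Col3a1* 3.80, SE 1.68, adjusted p = 0.3.

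Whether the difference between the 2 endothelial populations itself changed from E10 to E11 was tested as an interaction over 11 libraries. edgeR called 0 of 28 chains and 0.00806% of 12403 genes (1 gene), with 10 chains at an unadjusted p under 0.05, 9 of them with a higher value in CD44LowKitNeg relative to CD44Neg at E11, while DESeq2 called 3 chains and 0.951% of all genes and limma voom 0 and 0.00806%. Of all 12403 genes, 1321 had an unadjusted p under 0.05 from edgeR. A count of 0 in this design does not show that the difference was alike at both stages. The lowest adjusted p-values were those of *Lama3* (log2 difference of differences 4.44, SE 0.87, adjusted p = 0.073) and *Col4a2* (1.28, SE 0.25, adjusted p = 0.075). *Lama3* was at 23.4 ± 16.5 in CD44Neg and 93.4 ± 16 in CD44LowKitNeg at E10, and at 2.42 ± 1.96 and 199 ± 39.3 at E11.

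Among the partner lists, few genes were called between stages. Over all genes, 0.684% were called in CD44Neg and 0.173% in CD44LowKitNeg. An unadjusted p under 0.05 from edgeR was found for 1925 of 11250 genes in CD44Neg and 1851 of 11010 in CD44LowKitNeg. In CD44Neg, *Sparc*, which encodes a collagen-binding protein, rose by 0.98 as the 1 of 19 basement membrane partners called (median log2 fold change 0.46), and edgeR called 0 of 23 assembly genes (4 at an unadjusted p under 0.05, median 0.37), 0 of 8 receptors (2, median 0.45) and 0 of 16 proteases and inhibitors (10, median 0.85). In CD44LowKitNeg, *Fbln5* was the 1 of 25 partners called (median 1.12), and *Htra1* (4.34) and *Mmp2* (1.99) were the 2 of 15 proteases and inhibitors called (median 1.02), with 0 of 25 assembly genes (9 at an unadjusted p under 0.05, median 0.76) and 0 of 9 receptors (3, median 1.63).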

How the data were processed

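Bulk RNA of 25 cells per library was measured in 22 libraries. The authors amplified polyA RNA with SMART-Seq2 (14 PCR cycles per the labels), made Nextera libraries, clipped adaptors with FASTX, mapped reads with RNA STAR and counted them with htseq-count. The submitters' processing notes name mm10, FastQC and HTSeq. The deposited values are raw counts per gene symbol, without normalization. The annotation, versions and strand setting are not given in the sources used here, and this kind of library does not mark strand, so reads of overlapping genes cannot be told apart. All columns were matched to libraries by label.

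Genes with few counts were removed by filterByExpr of edgeR (minimum count 10, minimum total 15), and counts were scaled by TMM and tested with edgeR's quasi-likelihood test (prior count 0.125, Benjamini-Hochberg over all genes, called at an adjusted p under 0.01). SEs were derived from the F statistic. CD44LowKitNeg and CD44Neg were fitted on their 16 libraries, the other population contrasts on all 22, stage contrasts within a population and the interaction on 11. Normalized CPM used TMM sizes of all 22 libraries, and levels per kb the exon length in GENCODE vM21 on mm10. Totals were 3912350 to 8657546 counts. Limits of 3 counts for a count of 0 and counting intervals (95%) cover counting error only, since reads carry no molecular identifiers. The 20 pairs of libraries of 1 population and stage differed by a chi-square of 17.1 to 85.7 per degree of freedom, so no library was counted as a repeat of another.

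In every comparison, 14 fixed chains (9 of endothelial basement membrane, 5 fibrillar) and every chain called are named. From the lists of partners, assembly genes, receptors and proteases, there are up to 6 called genes by size of change. *Col12a1*, *Lamc3*, *Lama2* and *Col4a6* were named after their values were seen. One chain is not reported here. The chains and lists were chosen with earlier results of these data known. Alternatives were DESeq2's size factors and Wald test, limma voom, no filter, an adjusted p under 0.05, stage as a covariate, stages alone, all 22 libraries in the fit and each library left out. Leaving out *Rn45s*, and CD44High replicates 20 and 21, were chosen after seeing the data. Software was R 4.3.3, edgeR 4.0.16, limma 3.58.1, DESeq2 1.42.0, Python 3.11.15, pandas 2.3.3, numpy 2.4.6, scipy 1.17.1 and matplotlib 3.10.9. The fits of 5 of the 7 comparisons were tested on simulated data with known changes before use, and the interaction recovered by far the fewest of them.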

Additional observations from a re-analysis of the deposited data

Results flagged for a closer look

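Of 34 sets of a chain and a population with 4 to 10 libraries, 6 held 1 library far from the others by Dixon's criterion at 95%. Normally distributed values meet it by chance in about 1 set in 20. These levels include values of 0 and pool 3 stages, so the rate that chance gives here is not known. *Col3a1* in CD44Neg replicate 5 was at 22.9 normalized CPM, with the other 9 libraries at 0 to 9.80, and *Col5a1* in the same library was at 16.5, with the others at 0 to 7.61. In CD44LowKitNeg replicate 13, *Col15a1* was at 14.4, with the others at 3.25 to 6.38, and *Lama1* was at 2.79, with the others at 0 to 1.04. *Lama5* in CD44Neg replicate 8 was at 26.7, with the others at 0.929 to 11.7. *Lamc1* in CD44Neg replicate 3 was at 218, with the others at 61.5 to 141. The technical or biological source of these values was not tested.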

How the results depend on the processing

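Of 2212 log2 fold changes of named chains under alternatives, 2042 kept their direction and their side of the threshold, 76 lost and 65 gained a call, and 29 changed sign, while 72 levels under DESeq2's size factors moved by less than 1 SD. Counts of called chains moved by over 1.5 times as follows, each with the share of all genes called, and the cause was not tested. For CD44LowKitNeg against CD44Neg (6, 10.2%) it was 2 in E9.5 and E10 alone (2.69%). For CD44LowKitPos against CD44LowKitNeg (5, 4.26%) it was 12 with DESeq2 (9.60%), 11 at p under 0.05 (12.5%), 2 with stage as a covariate (2.83%) and 0 in E9.5 and E10 alone (0.00%). For CD44High against CD44LowKitPos (5, all lower, 3.01%) it was 10 with DESeq2 (5.53%), 2 of them higher, and 8 at p under 0.05 (6.05%), 1 of them higher. With limma voom (3.75%) it was 1, *Col5a1*, which rose, and none of the 5 falls was called. Against CD44LowKitNeg (12, 16%) it was 7 without CD44High replicates 20 and 21 (7.18%). For CD44Neg E11 against E9.5 (2, 0.684%) it was 5 with no filter (1.81%), 6 with DESeq2 (3.74%), 4 with limma voom (1.53%) and 6 at p under 0.05 (3.13%). For the CD44LowKitNeg stages (0, 0.173%) it was 2 with no filter (1.10%), 9 with DESeq2 (5.07%), 3 with limma voom (0.618%) and 4 at p under 0.05 (2.13%), and for the interaction (0, 0.00806%) 3 with no filter (1.19%) and 3 with DESeq2 (0.951%). With each library left out in turn, the counts ran from 5 to 6, 1 to 7, 3 to 5, 11 to 13, 0 to 4, 0 to 0 and 0 to 0 in the order of the comparisons given in the report.

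Changed signs, as log2 fold changes, were these. Without CD44High replicates 20 and 21, the fitted values were -8.94 against CD44LowKitNeg and -7.33 against CD44LowKitPos for *Col1a2*, -9.29 and 0.00 for *Col3a1*, and -8.66 against CD44LowKitPos for *Col5a2*. Replicate 22 had no count of these genes, so the values measure no size, and the limit of 3 counts gives at least 12.4-fold and 4.11-fold lower for *Col1a2*, 15.8-fold for *Col3a1* against CD44LowKitNeg and 10.4-fold for *Col5a2*. *Col3a1* had no count in CD44LowKitPos either, so its 0.00 there is no direction. *Col5a2* against CD44LowKitPos was also at -1.76 with limma voom and ran from -2.26 (without CD44High replicate 20) to 0.71 with 1 library left out. *Lamc1* in CD44LowKitNeg against CD44Neg was at 0.0333 with DESeq2's size factors, 0.0335 with DESeq2's test, 0.0272 with *Rn45s* left out, 0.0042 with no filter, and ran from -0.23 to 0.17 with 1 library left out, above 0 without CD44Neg replicate 2, 3 or 9 or CD44LowKitNeg replicate 14 or 15. *Lamb2* was at -0.39 there in E9.5 and E10 alone. In CD44Neg E11 against E9.5, *Col5a1* was at 0.25 with limma voom and ran from -1.47 to 0.0048 (without replicate 5), and *Lama5* was at -0.73 with limma voom and ran from -0.84 (without replicate 1) to 0.58. *Col1a2* was at -0.27 with limma voom between the CD44LowKitNeg stages. In the interaction, *Col1a2* was at -0.12 with limma voom and ran from -3.97 (without CD44Neg replicate 8) to 7.35, *Col3a1* was at 2.03 with limma voom and ran from -5.23 to 2.73, *Col5a1* ran from -6.46 to 5.45, the last values without CD44LowKitNeg replicate 15, and *Lamc1* ran from -0.060 (without CD44Neg replicate 1) to 0.76. No paired analysis was possible because the labels number the libraries once across all groups, so no number is shared. The 3 libraries of CD44LowKitPos and of CD44High limit the precision most, and chains below 1 normalized CPM lie near the limit that a count of 0 allows.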
